A study of Mus musculus with 2 samples.

Results

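The cells described here were early neutrophil cells with abundant S100a8 and S100a9 transcripts and little or no lactoferrin (Ltf) transcript, in cultures of mouse blood progenitors carrying an shRNA (short hairpin RNA) against Cxxc5 or a control shRNA. They were selected on measured values: at least 1% of a cell's unique molecular identifiers (UMIs, which count each captured transcript once) came from S100a8 and S100a9 together, and under 0.05% came from Ltf. The set held 1682 of the 8916 cells kept, 1048 of 6004 in the Cxxc5 knockdown library and 634 of 2912 in the control library. Because S100a8, S100a9 and Ltf chose the cells, their levels are given as a description only, and so is every difference between the set and other cells.

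The knockdown group was LSK cells (lineage-negative, Sca-1-positive and Kit-positive marrow cells, among them blood stem cells and early progenitors) of C57BL/6 mice infected with a retrovirus carrying the shRNA against Cxxc5. The control group was LSK cells infected with a retrovirus whose shRNA matches no mouse gene. Both were sorted for the GFP that marks infection and taken on day 3 of a culture with 20% serum and 10 ng/ml of each of GM-CSF and SCF, cytokines that drive myeloid growth. Marrow of 5 mice was used, and 5 samples were pooled into the library of each group. There was thus no replicate, and effects of the shRNA and of the library cannot be told apart. The sources used here do not give the shRNA sequence, the age of the mice, or whether the same mice gave both pools.

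Neutrophils build their granules in sequence as they mature in the bone marrow. Promyelocytes make the primary (azurophil) granules with myeloperoxidase and the serine proteases elastase, proteinase 3 and cathepsin G. Myelocytes then make the secondary (specific) granules with lactoferrin, neutrophilic granule protein and cathelicidin, and the cytosol fills with the calcium-binding S100A8 and S100A9 pair. A cell that holds S100a8 and S100a9 transcripts with hardly any Ltf transcript lies, by this textbook order, near the passage between these stages. Cxxc5 encodes a nuclear protein with a CXXC zinc finger, a domain that binds CpG-containing DNA.

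The upstream sequences of the 4 marker genes of the set and of Elane, the elastase gene of the primary granules, are shown because C/EBP and PU.1 are the transcription factor families best known for driving granulocyte genes. Each line is the 250 bases before the RefSeq start of the gene in GRCm38.p6, written 5′ to 3′ on the gene's own strand. The windows are chr3:90668821-90669070 on the plus strand for S100a8, chr3:90695722-90695971 on the minus strand for S100a9, chr2:28084879-28085128 on the minus strand for Fcnb, chr16:36276898-36277147 on the plus strand for Stfa1 and chr10:79886062-79886311 on the plus strand for Elane. Capitals mark the C/EBP core TTGCNNAA and the PU.1 core AGGAAGT, each searched on both strands, and the TATA box TATAAA, searched on the gene's strand.
S100a8: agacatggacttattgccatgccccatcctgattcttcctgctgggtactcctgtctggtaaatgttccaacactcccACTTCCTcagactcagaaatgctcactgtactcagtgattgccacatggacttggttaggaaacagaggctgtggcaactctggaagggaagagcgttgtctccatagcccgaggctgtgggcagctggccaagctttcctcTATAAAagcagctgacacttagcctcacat
S100a9: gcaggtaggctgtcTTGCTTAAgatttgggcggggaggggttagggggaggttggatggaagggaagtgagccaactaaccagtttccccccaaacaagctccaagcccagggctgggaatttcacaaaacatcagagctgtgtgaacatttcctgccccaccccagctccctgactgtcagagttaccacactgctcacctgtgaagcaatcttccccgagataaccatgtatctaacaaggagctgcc
Fcnb: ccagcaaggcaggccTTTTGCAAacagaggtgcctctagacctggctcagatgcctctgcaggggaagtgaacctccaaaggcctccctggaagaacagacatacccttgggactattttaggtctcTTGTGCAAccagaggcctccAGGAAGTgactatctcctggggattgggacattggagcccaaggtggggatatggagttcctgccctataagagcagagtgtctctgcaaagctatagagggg
Stfa1: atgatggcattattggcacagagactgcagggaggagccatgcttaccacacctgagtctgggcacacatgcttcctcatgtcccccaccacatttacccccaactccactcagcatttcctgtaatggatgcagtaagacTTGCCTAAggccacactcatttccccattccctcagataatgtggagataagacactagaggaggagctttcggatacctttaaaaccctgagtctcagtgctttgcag
Elane: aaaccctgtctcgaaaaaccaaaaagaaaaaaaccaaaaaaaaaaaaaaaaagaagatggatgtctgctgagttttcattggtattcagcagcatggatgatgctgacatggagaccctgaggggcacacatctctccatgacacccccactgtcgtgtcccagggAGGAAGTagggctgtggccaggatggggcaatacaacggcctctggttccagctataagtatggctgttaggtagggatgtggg

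Fcnb, which encodes the secreted lectin ficolin B, held 2 C/EBP cores, beginning 235 and 123 bases before the start, and a PU.1 core 103 bases before it. S100a8 held a PU.1 core 172 bases and a TATA box 30 bases before its start. S100a9 held a C/EBP core 236 bases before its start, Stfa1 held 1 at 109 bases, and Elane held a PU.1 core at 84 bases. No 2 of these matches overlapped. Among 32851 mouse promoter windows of the same length in the RefSeq table, 9.56% held the C/EBP core, 7.69% the PU.1 core and 7.59% the TATA box, so each is a common short string. A match is a description and not a binding site.

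The knockdown library held 6015 barcodes with 62910229 UMIs and the control library 2925 barcodes with 49333454 UMIs. The control cells were the more deeply counted: cells of the set had a median of 10033.5 UMIs and 2518.0 genes in the knockdown library, against 16543.0 UMIs and 3237.5 genes in the control library. The set's summed counts were nearly equal, 10631898 UMIs in knockdown cells and 10547737 in control cells. When each cell was thinned to 5000 UMIs, the median number of genes was 1675.5 in knockdown cells and 1652.0 in control cells, after 72 knockdown and 20 control members too shallow for this were left out. The libraries shared 26 barcodes, none of them in the set of both libraries, and 7 members carried a barcode that the other library also held. All intervals below are 95% intervals that cover counting error only and leave out the spread between cells, mice and cultures.

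Cxxc5, the targeted gene, was barely detected in the set in either library. It gave 2 UMIs in 2 of 1048 knockdown cells (0.191% of cells, exact Clopper-Pearson interval 0.0231 to 0.688%) and 11 UMIs in 10 of 634 control cells (1.58%, 0.759 to 2.88%). The log2 ratio of its level in knockdown over control cells was −2.47, with an interval from −5.69 to −0.27, so the direction is that of the label and the size is poorly fixed by these few UMIs. After thinning to 5000 UMIs, 0.205% of knockdown and 0.489% of control members held a Cxxc5 UMI, against 1.65% of knockdown and 9.05% of control cells that lay outside the set, the granule-protease-high cells and the Ltf-high cells described next.

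The set was compared with the cells on either side of it in granule content. Granule-protease-high cells had at least 1% of UMIs from Mpo, Elane, Prtn3 and Ctsg together and under 1% from S100a8 and S100a9, and numbered 3211 in the knockdown and 1243 in the control library. Ltf-high cells met the S100a8 and S100a9 limit and had at least 0.05% of UMIs from Ltf, and numbered 261 in the knockdown and 176 in the control library. The remaining 1484 knockdown and 859 control cells are called other cells. The scatter of S100a8 and S100a9 against Ltf shows these groups as ranges of a spread without a gap.

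**Figure D1:**
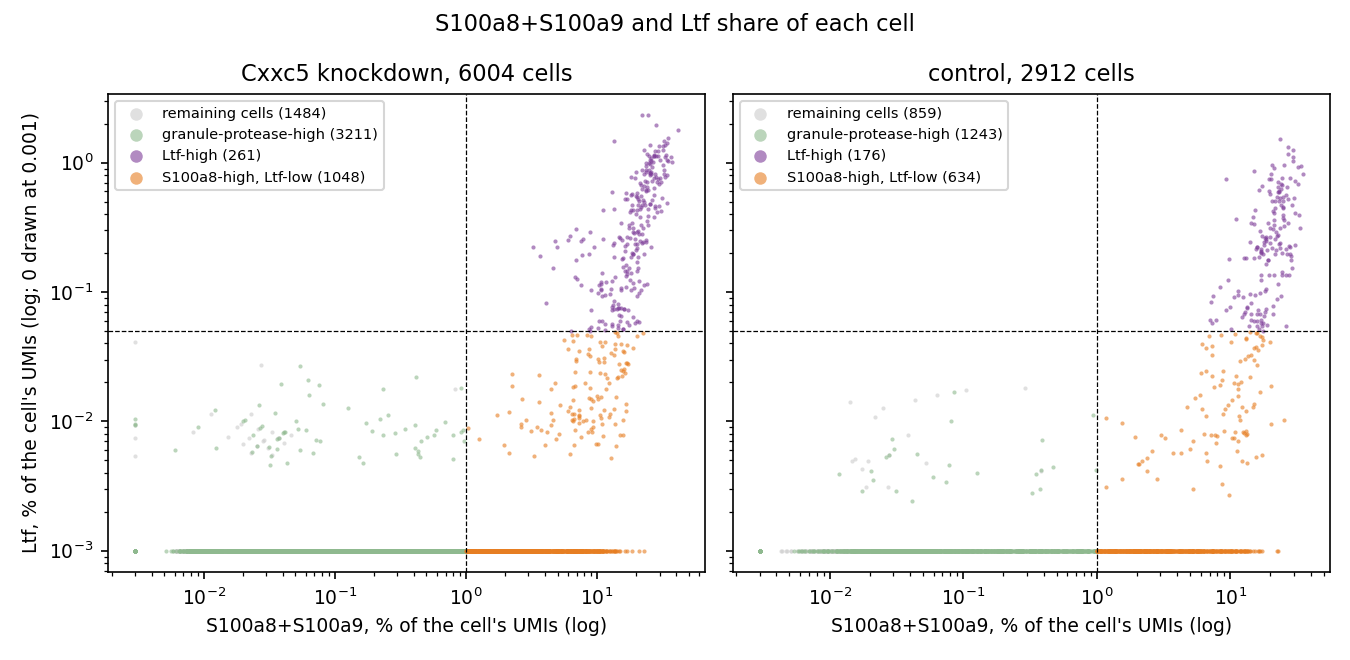
Share of each cell's UMIs from S100a8 and S100a9 together (x axis, percent, log scale) against its share from Ltf (y axis, percent, log scale), 1 point a cell, in the knockdown library (left) and the control library (right), with lines at the limits of 1% and 0.05%. The cells of the set (1048 knockdown, 634 control) lie right of the S100a8 and S100a9 limit and below the Ltf limit, and cells lie directly on either side of both lines.

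Cells lay densely at both limits. The S100a8 and S100a9 share reached down to 1.0021% just inside and up to 0.9997% just outside in the knockdown library, and to 1.0044% and 0.9981% in the control library. Between 0.9 and 1% there were 55 knockdown and 16 control cells, and between 1 and 1.1% there were 39 knockdown and 22 control cells. For Ltf the highest share inside was 0.0489% and the lowest outside 0.0501% in the knockdown library, against 0.0494% and 0.0501% in the control library. Of the members, 914 of 1048 knockdown cells and 529 of 634 control cells held no Ltf UMI at all.

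Of the 4 markers of the label "early neutrophil", S100a8 and S100a9 chose the cells, which leaves Fcnb and Stfa1. The levels of these 2 genes are a description and no independent check of the label. The members and the gene lists were chosen with earlier results of these data known. Both genes were also higher in members with a larger S100a8 and S100a9 share, the value that chose the cells. Fcnb stood at 237 CPM (the gene's UMIs as counts per 1000000 UMIs of the cells named) in knockdown and 228 CPM in control members, against 24.5 and 25.8 CPM in granule-protease-high cells and 2.54 and 3.55 CPM in other cells of the knockdown and control libraries. Stfa1, a member of the mouse stefin A family of cysteine protease inhibitors, stood at 3362 CPM in knockdown and 3142 CPM in control members, against 89.1 and 82.6 CPM in granule-protease-high cells. Both markers were therefore far above granule-protease-high cells, and they were higher still in Ltf-high cells, with 519 CPM of Fcnb in knockdown and 431 CPM in control Ltf-high cells and 5345 and 8840 CPM of Stfa1. After thinning to 5000 UMIs, 59.8% of knockdown and 58.8% of control members held a Fcnb UMI, against 1.16% and 1.49% of other cells.

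The members also carried the primary granule program. At least 1% of UMIs came from Mpo, Elane, Prtn3 and Ctsg together in 1015 of 1048 knockdown members (96.9%) and 583 of 634 control members (92.0%), and the median share was 2.58% in knockdown and 2.31% in control members. Elane was detected after thinning in 100% of members of both libraries, but also in 83.5% of knockdown and 77.0% of control other cells, so its detection alone does not separate cell types here. Tertiary granule and late neutrophil genes lay between those of the compared cells: their list of 22 genes summed to 1994 CPM in knockdown and 2182 CPM in control members, against 782 and 750 CPM in granule-protease-high cells and 5481 and 6780 CPM in Ltf-high cells. Wfdc21, a secreted protein gene, made up most of the sum, at 1247 CPM in knockdown and 1390 CPM in control members. Mmp9 (gelatinase) and Fpr1 (a formyl peptide receptor) had 0 UMIs in the set, but were also scarce in Ltf-high cells, at 3.11 and 2.71 CPM and at 0.519 and 0 CPM. Ly6g, the surface antigen of mature mouse neutrophils, stood at 5.83 CPM in knockdown and 9.01 CPM in control members, against 118 and 157 CPM in Ltf-high cells. Granulocyte-monocyte progenitor markers summed to 30900 CPM in knockdown and 28394 CPM in control members, against 22260 and 21885 CPM in granule-protease-high cells. Neutrophil markers without S100a8, S100a9 and Ltf summed to 9661 and 9679 CPM, against 248 and 240 CPM. In members with 1 to 2% of UMIs from S100a8 and S100a9, the progenitor sums were 30762 and 31237 CPM and the neutrophil sums 1690 and 1467 CPM. The name early neutrophil is kept as a label for cells that carried both sets of markers.

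Markers of other lineages were low in the set, apart from a few genes. The dendritic cell list summed to 26.9 CPM in knockdown and 4.17 CPM in control members, with Flt3, Siglech and Cd209a at 0 UMIs. Of 110 Ccl17 UMIs in knockdown members, 108 came from 1 cell, as did 77 of 84 UMIs of Cd74 and 25 of 27 UMIs of H2-Aa in their richest cell, against 3, 8 and 1 UMIs of these genes in all control members. Basophil markers summed to 96.7 CPM in knockdown and 67.1 CPM in control members, nearly all of it Mcpt8, at 95.4 and 65.2 CPM. The remaining lists were low in both libraries. Mast cell markers summed to 20.4 and 24.6 CPM, eosinophil markers to 6.77 and 10.0 CPM, erythroid markers to 27.2 and 33.9 CPM, megakaryocyte markers to 14.5 and 10.2 CPM and stromal markers to 35.2 and 45.8 CPM in knockdown and control members. The multipotent progenitor list summed to 41.6 CPM in knockdown and 44.3 CPM in control members, with Mecom and Flt3 at 0 UMIs. In the monocyte list Csf1r, the receptor that defines the lineage, stood at 0.564 CPM in knockdown and 1.52 CPM in control members, while Ly6c2, which granulocyte progenitors also express, stood at 2971 and 3880 CPM. In the lymphoid list Cd3e and Rag1 were at 0 UMIs, and nearly all of its sum of 1022 CPM in knockdown and 935 CPM in control members was Nkg7, a gene that granule-protease-high cells also expressed. The part of such cells in the differences between the libraries was not tested.

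Within the set the S100a8 and S100a9 share ranged up to 22.7% in the knockdown and 25.5% in the control library, with medians of 3.01% and 3.42%. Members were read in 4 tiers of this share, 1 to 2%, 2 to 5%, 5 to 10% and 10% or more, which held 312, 404, 228 and 104 knockdown cells and 165, 230, 143 and 96 control cells. The tiers are ranges of the value that chose the cells, so all differences between them are descriptions. Median depth was lower in the higher tiers, 10874.5, 9910.0, 9048.0 and 9028.5 UMIs in knockdown cells and 18649.0, 16729.0, 15600.0 and 13437.5 UMIs in control cells.

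Secondary granule genes differed widely between the tiers. Ngp, which encodes neutrophilic granule protein, stood at 280, 1747, 8200 and 18217 CPM across the 4 tiers in knockdown cells and at 312, 1910, 5741 and 15851 CPM in control cells. Camp, the cathelicidin antimicrobial peptide gene, stood at 106, 609, 2499 and 6954 CPM in knockdown cells and at 54.4, 553, 2119 and 6516 CPM in control cells. Both genes were low in the lowest tier and increased at every step in both libraries. Cells with a Ltf UMI became more frequent along the same tiers, with 4, 22, 51 and 57 such knockdown cells and 5, 14, 33 and 53 such control cells, which were most cells of the top tier. Of 16 secondary granule genes other than Ltf, 12 were at least 2-fold higher in the top tier than in the lowest in both libraries and none was 2-fold lower, against 2.46% of all 4471 genes read that were 2-fold higher and 10.3% that were 2-fold lower.

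The stefin genes followed the same order. BC100530, a stefin A family gene, stood at 594, 2824, 10022 and 17837 CPM across the tiers in knockdown cells and at 385, 1626, 6184 and 18118 CPM in control cells. Stfa1 stood at 971, 2783, 6283 and 7873 CPM in knockdown cells and at 754, 2256, 4313 and 9091 CPM in control cells, so its top tier lay above the Ltf-high cells in both libraries. Gm5483, another stefin-like gene, stood at 269, 1114, 4410 and 8693 CPM in knockdown cells and at 231, 946, 3260 and 8766 CPM in control cells. Of 8 measured stefins 7 were at least 2-fold higher in the top tier in both libraries, all but Cstb, the stefin B gene. The stefin A genes are near-identical copies on chromosome 16, and reads could be shared between them, so the split among them is uncertain.

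The markers and other genes that set the cells apart from all remaining cells followed too. Fcnb stood at 108, 215, 363 and 518 CPM across the tiers in knockdown cells and at 112, 182, 316 and 470 CPM in control cells. Il1r2, the decoy receptor for interleukin 1, stood at 48.1, 109, 220 and 268 CPM in knockdown cells and at 45.9, 88.1, 158 and 195 CPM in control cells. Lipg, which encodes endothelial lipase, did not keep this order: it was highest in the 5 to 10% tier, at 359 CPM in knockdown and 246 CPM in control cells, and stood at 301 and 212 CPM in the top tier.

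Primary granule genes divided among themselves. Mpo, the myeloperoxidase gene, stood at 2241, 2287, 1697 and 876 CPM across the tiers in knockdown cells and at 2036, 1773, 1158 and 573 CPM in control cells. Ctsg, the cathepsin G gene, stood at 4447, 4555, 3312 and 1723 CPM in knockdown cells and at 3746, 3716, 2367 and 1097 CPM in control cells. Elane stood at 11931, 14376, 13684 and 10927 CPM in knockdown cells and at 13551, 13648, 13568 and 9608 CPM in control cells. Mpo and Ctsg were thus lower relative to Elane in the top tier than in the lowest, and Elane varied little through the first 3 tiers. Of 17 primary granule genes, 2, Lyz2 and Mgst1, were at least 2-fold higher and 4, Mpo, Ctsg, Calr and Srgn, at least 2-fold lower in the top tier than in the lowest in both libraries. Of all genes read, 2.46% were higher and 10.3% lower. Scaled by the median gene the balance turned, to 4 higher and 1 lower. Lyz2, the lysozyme gene, like Mgst1 chosen after its values were seen, stood at 190 and 1144 CPM in the lowest and top tier of knockdown cells and 264 and 1326 CPM of control cells.

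**Figure D2:**
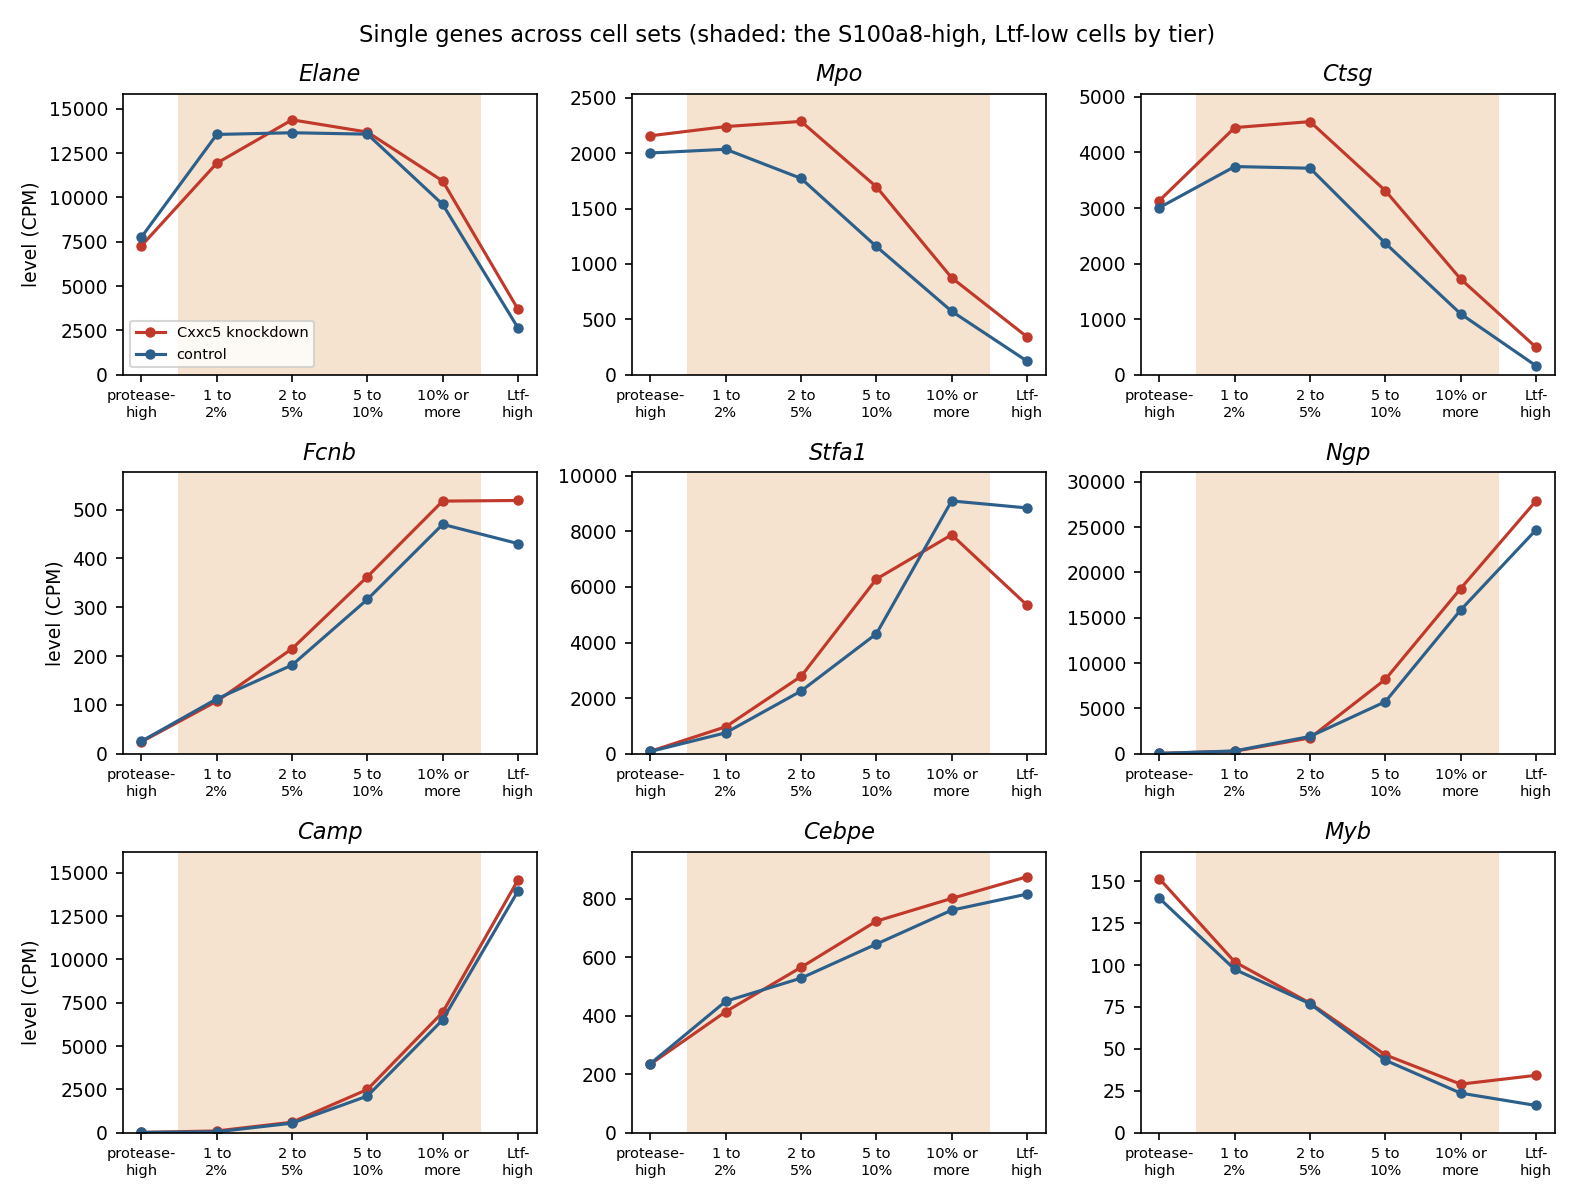
Level of 9 genes (y axes, CPM, from 0) in granule-protease-high cells, the 4 tiers of the set and Ltf-high cells, in order of S100a8 and S100a9 share (x axis), with 1 line for the knockdown and 1 for the control library. Ngp and Camp are higher at each step in both libraries, Mpo and Ctsg are lower at each step after the 2 to 5% tier, and Elane is highest in the 2 to 5% tier.

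Regulators of granulocyte genes differed between the tiers by less than Ngp and Camp. Cebpe, the C/EBP factor required for secondary granules, stood at 414, 566, 724 and 801 CPM across the tiers in knockdown cells and at 450, 529, 645 and 761 CPM in control cells. Gfi1, a repressor that favours the granulocyte over the monocyte fate, stood at 133, 122, 98.9 and 59.0 CPM in knockdown cells and at 127, 105, 68.6 and 42.9 CPM in control cells. The 2 factors thus differed in opposite directions along the tiers in both libraries. Id2, a helix-loop-helix inhibitor, stood at 89.8, 153, 213 and 224 CPM in knockdown cells and at 79.5, 104, 145 and 182 CPM in control cells. Of 17 measured transcription factors 1, Id2, was at least 2-fold higher and 3, Gfi1, Runx3 and Myb, at least 2-fold lower in the top tier in both libraries, against 2.46% and 10.3% of all genes read. Scaled by the median gene the balance turned, to 3 higher and 1 lower. Myb, a progenitor factor that like Runx3 was chosen after its values were seen, stood at 102 and 29.0 CPM in the lowest and top tier of knockdown cells and 97.4 and 23.6 CPM of control cells.

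Genes of ribosome production were lower in the higher tiers, while few cell cycle genes differed by CPM. Npm1, which encodes nucleophosmin of the nucleolus, stood at 1936, 1350, 875 and 642 CPM across the tiers in knockdown cells and at 1563, 1240, 888 and 454 CPM in control cells. Ncl, the nucleolin gene, stood at 968, 672, 483 and 311 CPM in knockdown cells and at 777, 658, 440 and 225 CPM in control cells. Of 19 measured nucleolar and ribosome biogenesis genes 18 were at least 2-fold lower in the top tier in both libraries. Of 28 S phase genes 1, Ung, chosen after its values were seen, was 2-fold lower and none higher, and of 30 G2/M phase genes none differed 2-fold. Of all 4471 genes read, 10.3% were 2-fold lower and 2.46% higher, and the median gene was itself lower, as given below. Scaled by the median gene, 10 of the 19 nucleolar genes were 2-fold lower. The summed level of the G2/M list was 5087, 5378, 6427 and 6814 CPM across the tiers in knockdown cells and 5234, 5317, 6062 and 6867 CPM in control cells.

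The NADPH oxidase, the enzyme complex of the respiratory burst, was already expressed in the lowest tier. Its 8 genes summed to 2849, 3509, 4133 and 4863 CPM across the tiers in knockdown cells and to 2998, 3462, 4231 and 4741 CPM in control cells. Cyba, the p22-phox subunit, made up most of it, with 1660 CPM in knockdown and 1669 CPM in control members. Of the 8 genes only Cybb, the catalytic subunit gene, chosen after its values were seen, was at least 2-fold higher in the top tier in both libraries. Of all 4471 genes read, 2.46% were 2-fold higher and 10.3% lower.

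By CPM the median gene was lower in the top tier than in the lowest, by a log2 ratio of −0.40 in knockdown cells and −0.43 in control cells. Scaled by that median gene, 210 genes were at least 2-fold higher and 152 lower in both libraries, against 110 higher and 462 lower by CPM. Relative to the median gene, 14 of 16 secondary granule genes and 7 of 8 stefins were 2-fold higher, 10 of 19 nucleolar genes were 2-fold lower, 4 of 17 primary granule genes were higher and 1 lower, 5 of 8 NADPH oxidase genes were higher and 3 of 30 G2/M genes were higher. For secondary granule genes and stefins, the limit given above on genes scarce in the lowest tier holds here too. Elane, lower by CPM in the top tier of both libraries, was higher than the median gene's shift in knockdown cells and slightly lower than it in control cells.

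**Figure D3:**
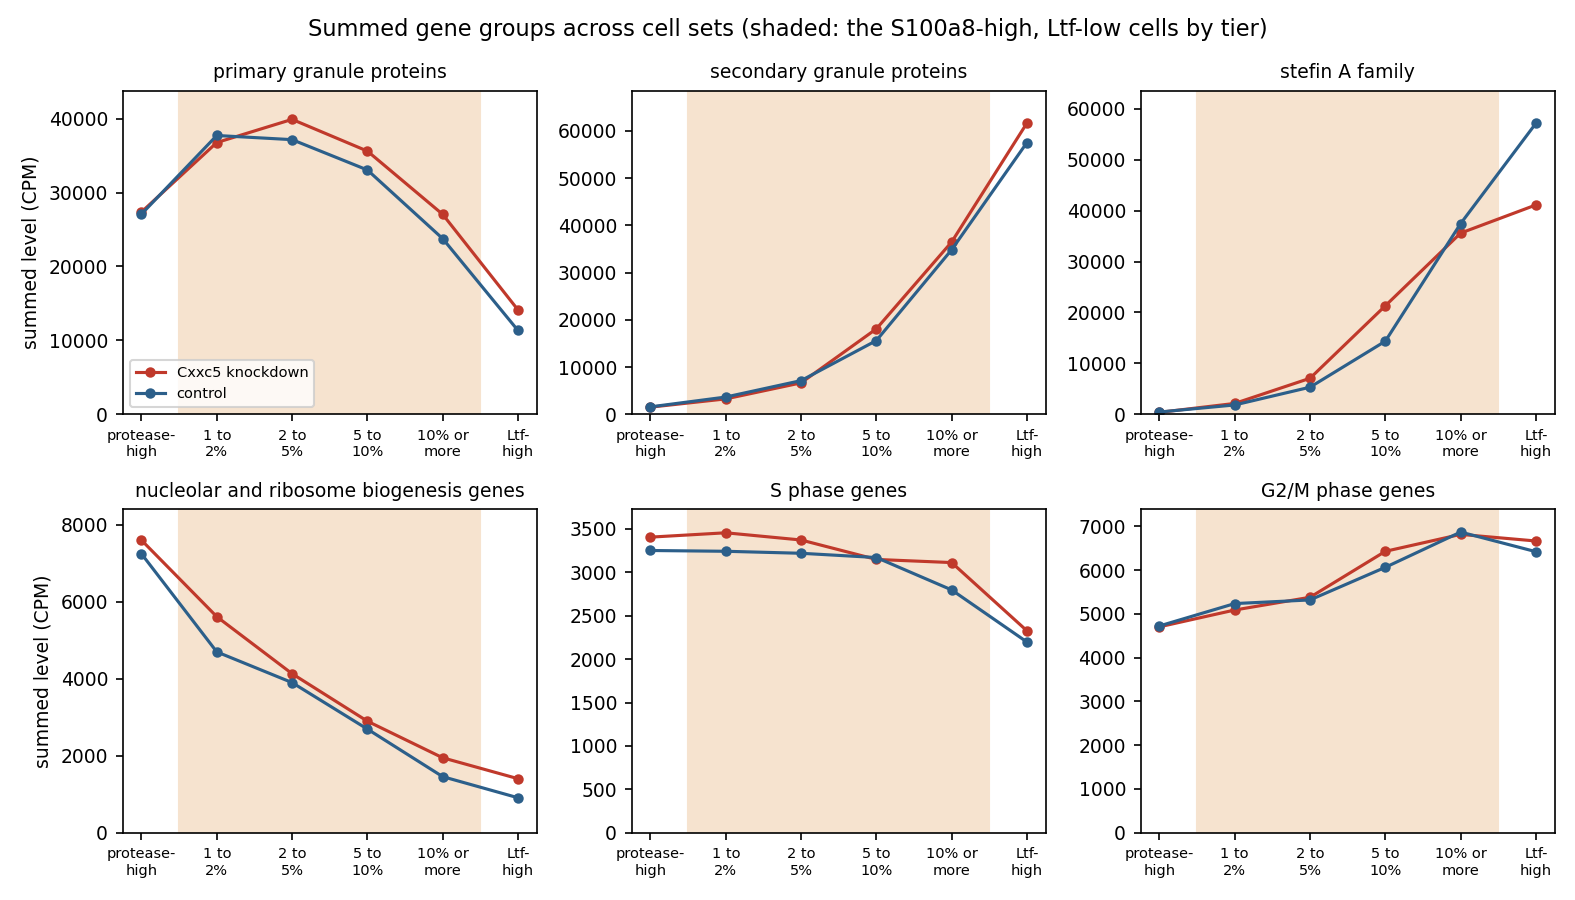
Summed level of 6 gene lists (y axes, CPM, from 0) in granule-protease-high cells, the 4 tiers of the set and Ltf-high cells, in order of S100a8 and S100a9 share (x axis), with 1 line for the knockdown and 1 for the control library; secondary granule proteins are without Ltf. Secondary granule and stefin sums are higher in each tier than in the 1 before, primary granule sums are highest in the first 2 tiers, and nucleolar sums are lower at each step.

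Against the granule-protease-high cells, the set stood out by secondary granule and stefin genes. Ngp stood at 4071 CPM in knockdown and 4065 CPM in control members, against 44.7 and 40.5 CPM in granule-protease-high cells, and Camp at 1404 and 1513 CPM, against 20.7 and 21.7 CPM. BC100530 stood at 4917 and 4370 CPM in the set, against 51.6 and 43.8 CPM. Elane was higher in the set too, at 13123 and 13084 CPM, against 7277 and 7767 CPM. All of these differences held in both libraries. After thinning to 5000 UMIs, 68.6% of knockdown and 71.0% of control members held a Ngp UMI, against 13.9% and 13.7% of granule-protease-high cells and 10.7% and 9.91% of other cells. Of 15 secondary granule genes 12 were at least 2-fold higher in the set in both libraries, and so were 4 of 5 stefins and 4 of 17 primary granule genes. Over all 4795 genes read in this comparison, 2.54% were 2-fold higher and 2.69% were 2-fold lower in the set.

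Genes lowest in the set against granule-protease-high cells had roles in several compartments. Mybbp1a, a nucleolar protein gene, stood at 49.9 CPM in knockdown and 41.1 CPM in control members, against 129 and 111 CPM in granule-protease-high cells. Fkbp11, a folding enzyme gene of the endoplasmic reticulum, stood at 92.0 and 76.7 CPM in the set, against 228 and 222 CPM. Chchd10 of mitochondria, at 58.0 and 45.5 CPM against 161 and 143 CPM, and the chromatin protein gene Hmgn1, at 59.3 and 51.3 CPM against 173 and 169 CPM, also stood at less than the level of granule-protease-high cells. Of 19 nucleolar genes 4 were at least 2-fold lower in both libraries. The median gene was lower in the set by log2 ratios of −0.19 in knockdown and −0.23 in control cells, and scaled by it 169 genes were 2-fold higher and 62 lower, against 122 and 129 by CPM. Scaled so, all 15 secondary granule genes were 2-fold higher and 2 of 19 nucleolar genes 2-fold lower. The 15 include the genes read through the set alone.

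Against Ltf-high cells, the set was lower in most secondary granule genes and higher in primary granule and nucleolar genes. Mpo stood at 2024 CPM in knockdown and 1562 CPM in control members, against 343 and 124 CPM in Ltf-high cells, and Ctsg at 4011 and 3096 CPM, against 496 and 163 CPM. Srgn, whose product serglycin packs proteases into granules, stood at 2847 and 2830 CPM, against 484 and 342 CPM. Srm, the spermidine synthase gene, stood at 154 and 132 CPM, against 30.1 and 18.5 CPM. Genes of the Ltf-high cells included Ifitm6, at 13.1 CPM in knockdown and 12.5 CPM in control members against 865 and 697 CPM, and Stfa3, at 11.8 and 15.2 CPM against 793 and 1229 CPM. Both genes were far lower in the set, although the stefin genes BC100530 and Stfa1 were abundant there.

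By counts, 10 of 17 primary granule genes were at least 2-fold higher in the set than in Ltf-high cells in both libraries and 2 were lower, 19 of 19 nucleolar genes were higher, and 11 of 16 secondary granule genes and 5 of 7 stefins were lower. In Ltf-high cells 18 nucleolar genes in the knockdown and 14 in the control library stood at 10 CPM or more. In the control library some nucleolar genes were thus read through the set alone. Over all 4314 genes read, 14.6% were 2-fold higher and 2.74% were 2-fold lower in the set. The median gene was higher in the set by log2 ratios of 0.48 in knockdown and 0.57 in control cells, and scaled by it 170 genes were 2-fold higher and 242 lower, against 631 and 118 by CPM. Scaled so, 8 of 17 primary granule genes were higher and 2 lower, 13 of 19 nucleolar genes were higher, and 12 of 16 secondary granule genes and 6 of 7 stefins were lower. Depth per cell differed as well, with a median of 10033.5 UMIs in knockdown and 16543.0 in control members against 6980.0 and 9908.0 in Ltf-high cells, and its part in these differences was not tested.

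The genes with the largest fold of the set over all remaining cells were mostly shared with Ltf-high cells. Il1r2 stood at 126 CPM in knockdown and 105 CPM in control members, against 15.5 and 17.6 CPM in all remaining cells. Lipg stood at 292 and 224 CPM, against 62.2 and 35.1 CPM. Clec4a2, a C-type lectin receptor gene, stood at 124 and 154 CPM, against 22.2 and 34.6 CPM. Il1r2 and Clec4a2 were higher still in Ltf-high cells, at 214 and 174 CPM and at 243 and 273 CPM, while Lipg was lower there, at 234 and 140 CPM.

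The set made up a smaller share of the knockdown than of the control library. It held 17.5% of knockdown cells (interval 16.5 to 18.4%) and 21.8% of control cells (20.3 to 23.3%), a log2 ratio of −0.32 (−0.46 to −0.17). Ltf-high cells held 4.35% of knockdown and 6.04% of control cells, granule-protease-high cells 53.5% and 42.7%, and other cells 24.7% and 29.5%. The knockdown library thus held relatively more granule-protease-high cells and fewer of every other group. With 1 library a group, the difference has no replicate check, and shares of 1 library depend on each other.

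Within the set the knockdown cells leaned to the lower tiers. The top tier held 9.92% of knockdown members (8.18 to 11.9%) and 15.1% of control members (12.4 to 18.2%), and the lowest tier held 29.8% (27.0 to 32.6%) and 26.0% (22.6 to 29.6%). This difference in make-up enters every ratio over the whole set, so the ratios were also computed with the tiers weighted to their shares in the control library. Among the cells with the highest Scrublet scores for doublets were 37 of 312 knockdown and 3 of 165 control cells of the lowest tier. The number of such cells was set by library size, at 288 of 6004 knockdown and 68 of 2912 control cells, whatever their scores. The knockdown library thus had the larger share of such cells by this setting. The top tier held 0 such cells in either library. The part of such cells in the make-up was not tested.

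Across all 4474 genes of at least 20 CPM in either library, the median log2 ratio of knockdown over control members was 0.04, and the middle 90 percent of genes lay between −0.30 and 0.32. At least 1.5-fold higher in knockdown members were 19 genes, 0.425% of those read, and at least 1.5-fold lower were 47 genes, 1.05%. Most genes of the set were therefore at much the same level in both libraries. Median depth per cell differed as given above, and with every cell thinned to 5000 UMIs 76 genes were 1.5-fold higher and 76 lower. Thinning left 976 knockdown and 614 control members of 5000 UMIs each, against sums of 10631898 and 10547737 UMIs before. The thinned counts thus rest on fewer UMIs and carry more counting error, whose part in them was not tested. For lists, genes of at least 10 CPM were read, and of all 6329 such genes 10.1% were at least 1.2-fold higher and 8.67% at least 1.2-fold lower in knockdown members, with a median of 0.03. These shares are the background for every count of list genes past 1.2-fold below.

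Among primary granule genes, Ctsg and Mpo were higher in knockdown members and Elane was level. Ctsg stood at 4011 CPM in knockdown and 3096 CPM in control members (log2 ratio 0.37, interval 0.35 to 0.39), Mpo at 2024 and 1562 CPM (0.37, 0.34 to 0.40) and Prtn3, the proteinase 3 gene, at 6873 and 6013 CPM (0.19, 0.18 to 0.21). Elane stood at 13123 CPM in knockdown and 13084 CPM in control members (0.00, −0.01 to 0.02). The ratios of Mpo and Ctsg were present in every tier, at 0.14, 0.37, 0.55 and 0.61 for Mpo and 0.25, 0.29, 0.48 and 0.65 for Ctsg from the lowest to the top tier. They were 0.11 and 0.06 in granule-protease-high cells and 1.47 and 1.61 in Ltf-high cells. The list of 17 primary granule genes had a median of 0.01, with 2 genes at least 1.2-fold higher, Mpo and Ctsg, and 4 lower, among them Serpinb1a, Lyz2 and Mgst1, which were named after their values were seen. Over all genes read 10.1% were higher and 8.67% lower, so the count of higher genes was near the share of all genes. Lyz2 stood at 412 CPM in knockdown and 616 CPM in control members (−0.58, −0.64 to −0.52).

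Secondary granule genes differed from gene to gene. Ngp stood at 4071 CPM in knockdown and 4065 CPM in control members and Camp at 1404 and 1513 CPM, log2 ratios of 0.00 and −0.11. Chil3, a chitinase-like protein gene, stood at 704 CPM in knockdown and 1126 CPM in control members (−0.68, −0.72 to −0.63), and Lcn2, the lipocalin 2 gene that starves bacteria of iron, at 496 and 651 CPM (−0.39, −0.44 to −0.34). Orm1, an acute phase protein gene, ran the other way, at 50.1 CPM in knockdown and 32.9 CPM in control members (0.61, 0.41 to 0.81). Of 16 genes 2, Orm1 and Ceacam10, were at least 1.2-fold higher and 7 lower, with a median of −0.11, and this median was 0.02 with the tiers weighted to the control shares. Ngp was lower in knockdown cells in the first 2 tiers, at −0.16 and −0.13, and higher in the next 2, at 0.51 and 0.20.

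Of 8 measured tertiary granule and late neutrophil genes, 1 was at least 1.2-fold higher, Clec4d, and 2 were lower, Stfa2l1 and Padi4, with a median of −0.14, or −0.0059 with the tiers weighted to the control shares; Clec4d and Padi4 were named after their values were seen. Csf3r and Wfdc21, among the most abundant of this list, had ratios of 0.02 and −0.16.

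The stefin ratios varied with how the set was drawn and weighted. The 8 measured genes had a median log2 ratio of −0.32, with none at least 1.2-fold higher and 5 lower, while their summed level was 10930 CPM in knockdown and 10386 CPM in control members, in the opposite direction. The median was 0.01 with the tiers weighted to the control shares, −0.07 among cells without a Ltf UMI and −0.15 over genes of at least 20 CPM. The 2 most abundant stefins were higher in the knockdown set, BC100530 at 4917 and 4370 CPM (0.17, 0.15 to 0.19) and Stfa1 at 3362 and 3142 CPM (0.10, 0.08 to 0.12). In the first 3 tiers BC100530 had ratios of 0.63, 0.80 and 0.70, and in the top tier −0.02, and in Ltf-high cells −0.46. Stfa2, which is scarce in the set, gave 128 UMIs in knockdown and 330 UMIs in control members (−1.38, −1.68 to −1.08).

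Several S100 genes other than S100a8 and S100a9 were lower in knockdown members. S100a6, the calcyclin gene, stood at 373 CPM in knockdown and 756 CPM in control members (−1.02, −1.08 to −0.96), and its ratio was −0.67, −0.98, −0.91 and −0.95 in the 4 tiers. S100a4 stood at 9.22 and 26.4 CPM (−1.52, −1.86 to −1.18). Of 6 measured genes 3, S100a4, S100a6 and, named after its values were seen, S100a13, were at least 1.2-fold lower and none higher, with a median of −0.25. The ratios of S100a6 were −0.48 in granule-protease-high and −0.53 in Ltf-high cells, and the difference between these groups was not tested. S100a4 stood at 83.0 CPM in knockdown and 198 CPM in control other cells, where it was most abundant.

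Chemokine and inflammatory genes were the list with the lowest median, −0.78 over 9 genes, with 5 at least 1.2-fold lower, the 4 described here and, named after its values were seen, Il1rn, and 2 higher. The lists were chosen with earlier results of these data known, so this rank is a description only. Thbs1, the gene of the secreted adhesion protein thrombospondin 1, gave 181 UMIs in knockdown and 595 UMIs in control members, or 17.0 and 56.4 CPM (−1.73, −1.98 to −1.49), and was lower in all 4 tiers, by −1.62, −1.78, −2.61 and −1.60. Ccl6, a CC chemokine gene of myeloid cells, stood at 91.2 CPM in knockdown and 173 CPM in control members (−0.92, −1.04 to −0.81), and its neighbour Ccl9 at 47.5 and 99.8 CPM (−1.07, −1.23 to −0.92). Anxa1, the annexin A1 gene, stood at 29.0 and 49.6 CPM (−0.78, −0.98 to −0.57). Of the higher genes 1 was Ccl17, nearly all of whose UMIs came from the 1 knockdown cell named above, and the other was Il1r2 (0.27, 0.15 to 0.39). Thbs1 was detected after thinning in 6.97% of knockdown and 21.0% of control members.

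Transcription factors were split. Klf2, a Krüppel-like factor that restrains myeloid activation, stood at 20.1 CPM in knockdown and 51.6 CPM in control members (−1.36, −1.59 to −1.13), and Klf6 at 15.7 and 24.9 CPM (−0.67, −0.96 to −0.38). Id2 stood at 151 and 116 CPM (0.38, 0.27 to 0.49), Cebpb, the C/EBP factor of emergency granulopoiesis, at 98.2 and 77.2 CPM (0.35, 0.21 to 0.48) and Gfi1 at 115 and 95.4 CPM (0.27, 0.15 to 0.39). Cebpe, at 570 CPM in knockdown and 561 CPM in control members, and Spi1, which encodes PU.1, at 461 and 483 CPM, were nearly level. Of 18 factors 5 were at least 1.2-fold higher, these 3 with Runx3 and Zeb2, named after their values were seen, and 2 lower, with a median of 0.08. Of all genes read, 10.1% were higher and 8.67% lower.

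Surface receptor genes lay on the low side. Of 24 genes 7 were at least 1.2-fold lower and none higher, with a median of −0.18. Ly6c2 stood at 2971 CPM in knockdown and 3880 CPM in control members (−0.39, −0.41 to −0.36), with ratios of −0.41, −0.33, −0.35 and −0.45 in the tiers. It belongs to the Ly6 family of near-identical copies, so its count is uncertain. Cd33, a sialic acid binding receptor gene, stood at 16.8 and 28.3 CPM (−0.75, −1.02 to −0.47). Csf3r, the receptor for G-CSF, was level at 25.5 CPM in knockdown and 25.1 CPM in control members.

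Nucleolar genes lay on the high side. Of 20 genes 6 were at least 1.2-fold higher and none lower, with a median of 0.23. Npm1 stood at 1381 CPM in knockdown and 1157 CPM in control members (0.26, 0.22 to 0.29) and Ncl at 697 and 590 CPM (0.24, 0.19 to 0.29). Naf1, a gene of RNA-protein particle assembly singled out after its values were seen, gave 211 UMIs in knockdown and 70 UMIs in control members (1.58, 1.18 to 1.99). Nucleolar genes are also higher in the lower tiers, of which the knockdown set held more. The list's median was 0.18 with the tiers weighted to the control shares. Over all settings tried it lay between 0.17 and 0.27. The part of the make-up of the set in these ratios was not tested. The 14 ribosomal protein genes sampled had a median of −0.05 with none past 1.2-fold.

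Cell cycle and respiratory burst genes were near level. The 30 S phase genes had a median of 0.02 with none past 1.2-fold, and the 33 G2/M genes a median of 0.04, with Aurka higher and Cenpf and Haus4 lower; Aurka and Cenpf were named after their values were seen. Haus4, which encodes a subunit of the spindle's augmin complex, stood apart from them at 16.9 CPM in knockdown and 46.7 CPM in control members (−1.47, −1.72 to −1.22). The 8 NADPH oxidase genes had a median of −0.10, with Rap1a higher and Cybb lower, both named after their values were seen.

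**Figure D4:**
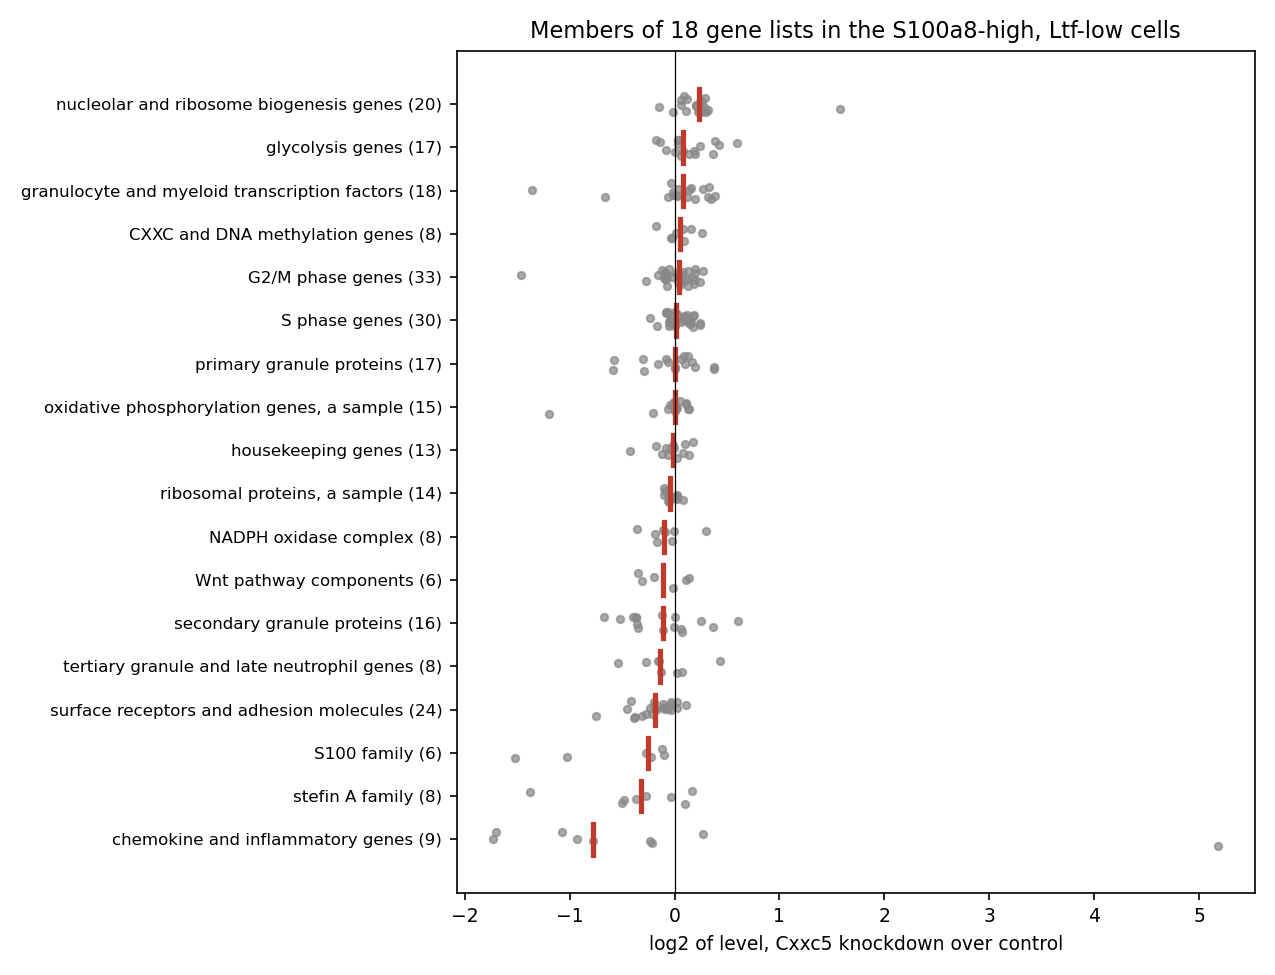
Log2 ratio of knockdown over control members (x axis) for each measured gene (points) of 18 gene lists (y axis), with the median of each list as a bar. The medians lie between −0.78 (chemokine and inflammatory genes) and 0.23 (nucleolar genes), and the point at 5.18 is Ccl17, whose UMIs came almost all from 1 cell.

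Among the genes of at least 50 CPM in either library, those with the lowest ratios other than the ones above had varied functions. Myl10, a myosin light chain gene, stood at 201 CPM in knockdown and 489 CPM in control members (−1.28, −1.36 to −1.21), and Cycs, the cytochrome c gene, at 184 and 420 CPM (−1.19, −1.27 to −1.11). Lgals1 and Lgals3, the galectin 1 and 3 genes, stood at 272 and 473 CPM (−0.80, −0.86 to −0.73) and at 127 and 219 CPM (−0.79, −0.89 to −0.69). Bcl2a1a, a survival gene of the Bcl2 family with near-identical copies, stood at 39.7 and 74.0 CPM, Rgs18, a regulator of G protein signalling, at 40.4 and 73.7 CPM, and Rnf5, a ubiquitin ligase gene, at 30.9 and 55.3 CPM. All 7 were lower in knockdown cells in each of the 4 tiers and in granule-protease-high and Ltf-high cells. Cycs also has many processed copies in the genome that could take or give reads.

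Among the same genes of at least 50 CPM, the highest ratios belonged to Nsmce2, a SUMO ligase gene of the SMC5/6 complex, at 53.7 CPM in knockdown and 25.8 CPM in control members (1.06, 0.85 to 1.27), and Smim11, a small membrane protein gene, at 97.9 and 47.6 CPM (1.04). Ptges3, the gene of the HSP90 co-chaperone p23, stood at 172 and 96.8 CPM (0.83, 0.72 to 0.94), and Arpc1a, a subunit of the actin-nucleating Arp2/3 complex, at 154 and 90.0 CPM (0.78, 0.66 to 0.89). Ccnd2, the cyclin D2 gene, stood at 154 and 105 CPM (0.55, 0.44 to 0.66). The other 7 of the 12 highest, Pold4, Tmem33, Orm1, Ywhag, Vdac1, Nudt21 and Pla2g12a, had ratios from 0.55 to 0.63. All 12 were higher in knockdown cells in each tier and in granule-protease-high and Ltf-high cells.

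The plot of the 24 ratios shows them beside the same ratios in the neighbouring cells. Of the 12 lowest, 11 were also lower in knockdown Ltf-high cells, and Ccl9 was higher there, with a log2 ratio of 0.49. Ccl9 stood under 20 CPM in the Ltf-high cells of both libraries, so that ratio rests on few UMIs. Thbs1 had ratios of −1.29 in granule-protease-high and −1.95 in Ltf-high cells, Myl10 −1.11 and −1.33, and Klf2 −1.13 and −0.33. The libraries of these cells are the same as those of the set, so these values repeat the comparison in other cells of the same pools and are not replicates. These genes therefore differed between the libraries well beyond the set, and a difference between the set and the other cells was not tested.

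**Figure D5:**
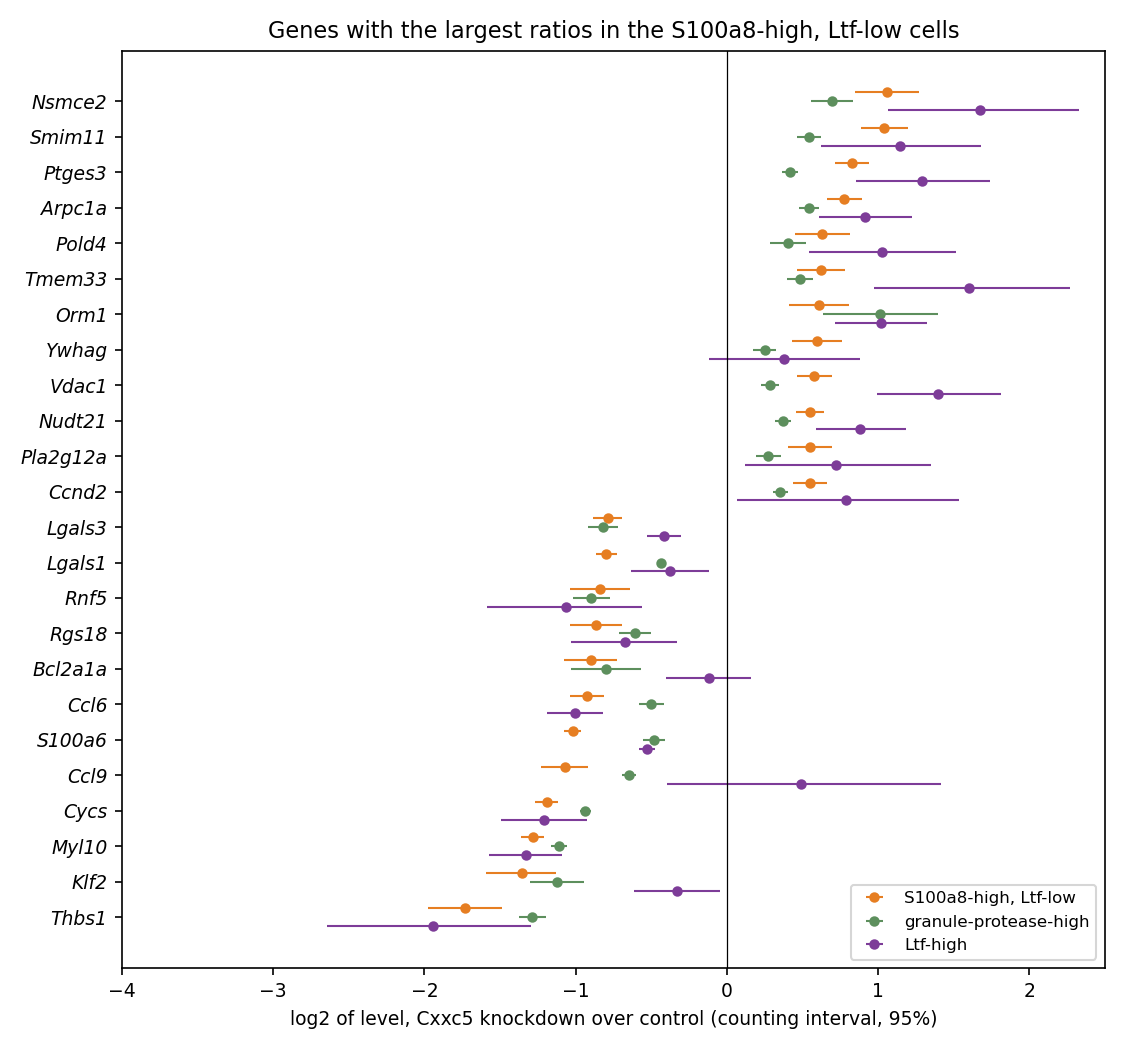
Log2 ratio of knockdown over control (x axis) of the 12 highest and 12 lowest genes of the set (y axis), with exact 95% intervals, in the set, granule-protease-high cells and Ltf-high cells. The ratios in the set run from 1.06 (Nsmce2) to −1.73 (Thbs1), and Ccl9 is the 1 gene that lies on the other side of 0 in Ltf-high cells, where it stood under 20 CPM.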

How the data were processed

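The authors deposited UMI counts for each gene in each cell barcode. The libraries were of the 10x Genomics 3′ v2 kind, per the labels' protocols. The submitters' processing notes name Cell Ranger 2.1.1 and the build mm10, and the annotation release is not given in the sources used here. In all 28692 genes are listed. Barcodes with at least 500 genes and at most 10% of UMIs from symbols starting with mt- were kept, which removed 11 knockdown and 13 control barcodes, all for mitochondrial share. The set, its tiers and the compared cells followed the limits given in the text.

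Counts of a group of cells were summed per library and divided by their total, as CPM. A ratio is always knockdown over control, and its exact interval comes from how the UMIs divide between the libraries; shares have exact Clopper-Pearson intervals. Each group had 1 library, pooled from several samples, so no test was made and no p-value is given; a difference was counted by size only, at 1.2-, 1.5- or 2-fold. Cells were thinned to 5000 UMIs where detection or genes per cell were compared. Scrublet in scanpy 1.11.5 called 6 knockdown and 1 control cells, too few to rely on, so doublets were kept, and as an alternative 288 knockdown and 68 control cells with the highest scores were removed, a rate of 0.8% per 1000 cells. Other alternatives changed the limits of the set, the minimum level, the scaling, the depth or the weights of cells and tiers. Python 3.11.15, numpy 2.4.6, scipy 1.17.1, pandas 2.3.3 and matplotlib 3.10.9 were used, and the ratios were tested on simulated data.

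Named genes were the markers and Cxxc5, the 12 highest and 12 lowest ratios of knockdown over control among genes of at least 50 CPM, the 12 highest folds over all remaining cells, the 6 highest and 6 lowest against each compared group, and of each list up to 6 of the most abundant members and any at least 1.5-fold apart. Of 410 genes in the lists 408 were matched by symbol; Azu1 and Csta2 were not analysed here. The members and the lists were chosen with earlier results of these data known. Promoter sequences are RefSeq's, in GRCm38.p6, which is the assembly of mm10.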

Additional observations from a re-analysis of the deposited data

Results flagged for a closer look

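Hsd11b1, the gene of the enzyme that regenerates active glucocorticoid, differed in direction between the set and the Ltf-high cells. It stood at 120 CPM in knockdown and 162 CPM in control members, a log2 ratio of −0.43 (interval −0.54 to −0.33), and was lower in knockdown cells in all 4 tiers. In Ltf-high cells it stood at 242 CPM in knockdown and 200 CPM in control cells, a log2 ratio of 0.27. The difference between these 2 ratios was not tested, since each library is 1 sample.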

How the results depend on the processing

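No paired analysis was possible because each group had 1 library. The share of the set was lower in the knockdown library under all 7 alternatives, with log2 ratios from −0.39 to −0.15. It was 12.3% of knockdown and 16.1% of control cells with an S100a8 and S100a9 limit of 2%, 23.8% and 26.4% with 0.5% (log2 ratio −0.15), and 15.2% and 18.2% for cells without a Ltf UMI. The counts of genes 1.5-fold higher and lower were 76 and 76 after thinning, 8 and 24 at a minimum of 50 CPM, 108 and 169 at 5 CPM, and 30 higher with cells weighted equally. Counts after thinning rest on fewer UMIs, as given above, and carry more counting error.

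Of list medians, the stefins reversed to 0.0135 with the tiers weighted to the control shares. Primary granule genes had 0.0879 with the 2% limit, 0.0999 after thinning and −0.0282 with median scaling. Secondary granule genes had −0.0678 with the 2% limit, −0.0372 without Ltf UMIs, −0.200 after thinning, −0.0696 without the highest doublet scores, −0.151 with median scaling, −0.168 with equal cell weights and 0.0174 with weighted tiers. Chemokine genes had −0.985 after thinning, and ribosomal genes −0.0838 with median scaling. Scaled by the median gene, which was chosen after the data were seen, the set had 170 genes higher and 242 lower than Ltf-high cells and 62 lower than granule-protease-high cells, and the top tier 210 higher and 152 lower than the lowest. For these the cause was not tested. Thbs1, Klf2, S100a4, S100a6, Myl10, Cycs, Ccl6, Ccl9, Lgals1, Lgals3, Nsmce2, Smim11, Ptges3 and Arpc1a were at least 1.5-fold apart under every alternative run, and Chil3 had −0.47 with weighted tiers. Depth limits genes under 20 CPM, and 1 library a group allows no statement about spread between cultures.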

Other observations

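Energy and housekeeping genes in the set were nearly level between the libraries. The 17 glycolysis genes had a median log2 ratio of knockdown over control members of 0.08, with 4 at least 1.2-fold higher, Pfkl, Tpi1, Slc2a3 and Slc16a3, named after their values were seen, and none lower. Of all genes read, 10.1% were higher and 8.67% lower. Ldha, the lactate dehydrogenase A gene, stood at 764 CPM in knockdown and 673 CPM in control members, and Pkm, the pyruvate kinase gene, at 930 and 878 CPM. The 15 oxidative phosphorylation genes had a median of 0.01, with Cycs lower, and the 13 housekeeping genes a median of −0.01, with 1 lower. That gene was B2m, the light chain of class I histocompatibility molecules, at 644 CPM in knockdown and 866 CPM in control members (−0.43, −0.47 to −0.38), and it was lower in knockdown cells in all 4 tiers.

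The 8 measured genes of CXXC proteins and DNA methylation had a median of 0.05, with Kdm2b higher, and the 6 measured Wnt pathway genes a median of −0.11, with 2 lower, Gsk3a and Gsk3b, the glycogen synthase kinase 3 genes. Of all genes read, 10.1% were at least 1.2-fold higher and 8.67% lower, and lists this short allow no reading of such counts. Axin2 and Lef1, genes of the Wnt response, had 0 UMIs in members of either library.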
